A study of Mus musculus with 6 samples.

Results

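The ERK feedback genes are 10 genes of 4 families: the phosphatases Dusp4, Dusp5 and Dusp6, the Sprouty genes Spry1, Spry2 and Spry4, the Sprouty-related Spred1 and Spred3, and the ETS transcription factors Etv4 and Etv5. They were found by symbol, 1 Ensembl gene for each, among 55536 genes in the count table. The series holds RNA-seq libraries of 6 orthotopic tumours in male C3H mice, 3 treated with TSDP and 3 untreated (Control). TSDP is a nanoparticle that carries DNIC, a donor of nitric oxide, and sorafenib, an inhibitor of RAF and receptor kinases. It was injected intravenously 6 times between day 10 and day 23 after implantation, and tumours were taken on day 24. All 6 tumours grew from HCA-1, a mouse hepatocellular carcinoma line, injected as 1000000 cells below the capsule of the liver at an age of 6 to 8 weeks. The labels name no empty carrier, free sorafenib or carrier with DNIC alone for any mouse, so the effect of 1 component cannot be told apart from that of another.

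Growth factor receptors switch on RAS, which activates the kinases RAF, MEK and ERK in turn. Active ERK raises the transcription of genes whose products damp the same cascade, so their transcripts are widely used as a readout of pathway output. DUSP phosphatases of this group remove phosphate from ERK, Sprouty and SPRED proteins act upstream on RAS and RAF, and ETV4 and ETV5 are transcription factors induced by ERK. In liver, FGF and EGF receptors feed this pathway, and sorafenib was developed against RAF.

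None of the 10 genes passed the test between TSDP and Control tumours. At an adjusted p under 0.05 in edgeR's quasi-likelihood test over 17423 genes, 0 of the 10 were higher and 0 lower in TSDP, and 0% of all genes tested passed. DESeq2 and limma-voom also called 0 of the 10, where they called 3.38% and 0% of all genes they tested. At an unadjusted p under 0.05 edgeR took 0 of the 10 as higher, where 8.6% of all genes were higher, and 1 of the 10, Spred3, as lower, where 4.75% of all genes were lower. The 3 TSDP and 3 Control values did not overlap for 1 of the 10 genes, against 21.8% of all genes tested. Of the log2 fold changes (TSDP over Control) 7 were negative and 3 positive, with a median of -0.22, against a median of -0.02 over all genes tested and 52.7% of them negative. The genes varied together between libraries. Of the 10, 9 were lowest in the same library of each group (TSDP 2 and Control 4), against 23.3% of all genes tested. Spry1 was highest there, as were 27.8% of all genes tested.

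Libraries held between 32130808 and 38953397 counts, and each of the 10 genes except Spry1 had at least 588 counts in every library. Together 20 hepatocyte genes took 3.55%, 6.36% and 2.22% of counts in TSDP 1, 2 and 5, against 0.0142%, 2.34% and 0.442% of counts in Control 3, 4 and 5 (exact two-sided permutation p = 0.2, smallest possible 0.1). Control 4 also held RNA of 4 pancreatic enzyme genes (Ctrb1, Pnlip, Pnliprp1 and Cpa1, chosen after their values were seen), at 0.958% of counts, with at most 52 counts in any other library. The 9 markers of liver carcinoma together took between 0.316% (TSDP 2) and 1.07% (Control 5) of counts, and levels are given for only some of them. The keratins Krt8 and Krt18 were high in every library, at 431 to 647 and 507 to 725 CPM (counts scaled to a library of fixed size). Afp, the fetal albumin-like protein, lay between 3.27 and 9.20 CPM, and Gpc3, a surface proteoglycan of liver cancer, between 0.680 and 4.83 CPM.

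Promoter sequences are shown for Dusp6, Dusp5 and Spry1. Dusp6 was the most abundant of the 10, and Dusp5 the 1 gene with CArG boxes among the windows searched. Spry1 went against the rest across libraries. Windows from RefSeq (GRCm38.p6) were searched for 7 of the 10 genes. Dusp4 and Etv4 had no window, and Spry4 was left out of the search. Each line is the 250 bases before the annotated start, 5′ to 3′ on the + strand, at chr10:99262981-99263230 for Dusp6, chr19:53528895-53529144 for Dusp5 and chr3:37639697-37639946 for Spry1. Capitals mark GGAA on either strand, the core bound by ETS factors, and in Dusp5 also the CArG boxes, sites of the type bound by serum response factor.
Dusp6: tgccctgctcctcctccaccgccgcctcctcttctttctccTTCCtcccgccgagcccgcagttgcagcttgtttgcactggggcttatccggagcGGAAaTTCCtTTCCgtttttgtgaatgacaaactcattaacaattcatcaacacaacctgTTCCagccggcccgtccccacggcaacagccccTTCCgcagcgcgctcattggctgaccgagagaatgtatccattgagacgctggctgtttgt
Dusp5: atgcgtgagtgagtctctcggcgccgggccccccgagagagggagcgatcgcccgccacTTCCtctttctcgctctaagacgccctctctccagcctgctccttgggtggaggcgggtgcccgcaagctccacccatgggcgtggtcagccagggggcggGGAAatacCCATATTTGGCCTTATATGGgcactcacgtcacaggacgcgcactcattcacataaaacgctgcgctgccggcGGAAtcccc
Spry1: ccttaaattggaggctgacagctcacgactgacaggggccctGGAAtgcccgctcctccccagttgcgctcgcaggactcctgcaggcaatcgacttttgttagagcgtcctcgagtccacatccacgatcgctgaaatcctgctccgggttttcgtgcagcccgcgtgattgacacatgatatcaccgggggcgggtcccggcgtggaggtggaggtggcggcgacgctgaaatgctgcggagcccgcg

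The Dusp6 window held 6 matches to GGAA, that of Dusp5 3 and that of Spry1 1, where the median over 32851 mouse windows was 3 and 93.4% held at least 1. The 2 CArG boxes of Dusp5, CCATATTTGG and CCTTATATGG, lie next to each other, from 82 to 63 bases before the start, and do not overlap. A CArG box on either strand was found in 1.47% of all windows, and among the 7 genes in Dusp5 alone. None of the windows of the 7 genes held CCGGAAG, an extended ETS site that contains GGAA (6.91% of all windows), TGACGTCA, the CRE (1.55%), or TGANTCA, the AP-1 site (6.75%), on either strand. These matches describe the letters in the windows. GC content was 56.4% for Dusp6, 64.0% for Dusp5 and 62.4% for Spry1, against a median of 52.4%.

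Dusp6 encodes a cytoplasmic phosphatase that binds and inactivates ERK. It was counted at 351, 227 and 365 CPM in TSDP 1, 2 and 5, and at 417, 279 and 346 CPM in Control 3, 4 and 5. The 2 groups overlapped, and the lowest library was TSDP 2. The log2 fold change was -0.14 ± 0.24 (SE, edgeR adjusted p = 0.809), and its 95% interval, as a fold, ran between 0.604 and 1.36. Dusp4, a nuclear phosphatase of ERK and JNK, had 145, 93.0 and 179 CPM in TSDP 1, 2 and 5, against 205, 126 and 237 CPM in Control 3, 4 and 5. It had the most negative log2 fold change of the 10, -0.45 ± 0.32 (SE, edgeR adjusted p = 0.554), yet the values of TSDP 1 and TSDP 5 lay above that of Control 4. Without TSDP 2 the log2 fold change of Dusp4 was -0.24, and without Control 5 it was -0.26. Dusp5, a nuclear phosphatase specific to ERK, had 94.8, 52.9 and 89.8 CPM in TSDP libraries, against 61.3, 43.9 and 109 CPM in Control libraries. Its Control values spanned 2.48-fold, and all 3 TSDP values lay inside that span (log2 fold change 0.15 ± 0.38, SE, edgeR adjusted p = 0.878; -0.11 without Control 4). In the M21 annotation 22.1% of the exon bases of Dusp5 are shared with a gene on the other strand, which had 20 counts in all, against 16299 for Dusp5.

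**Figure D1:**
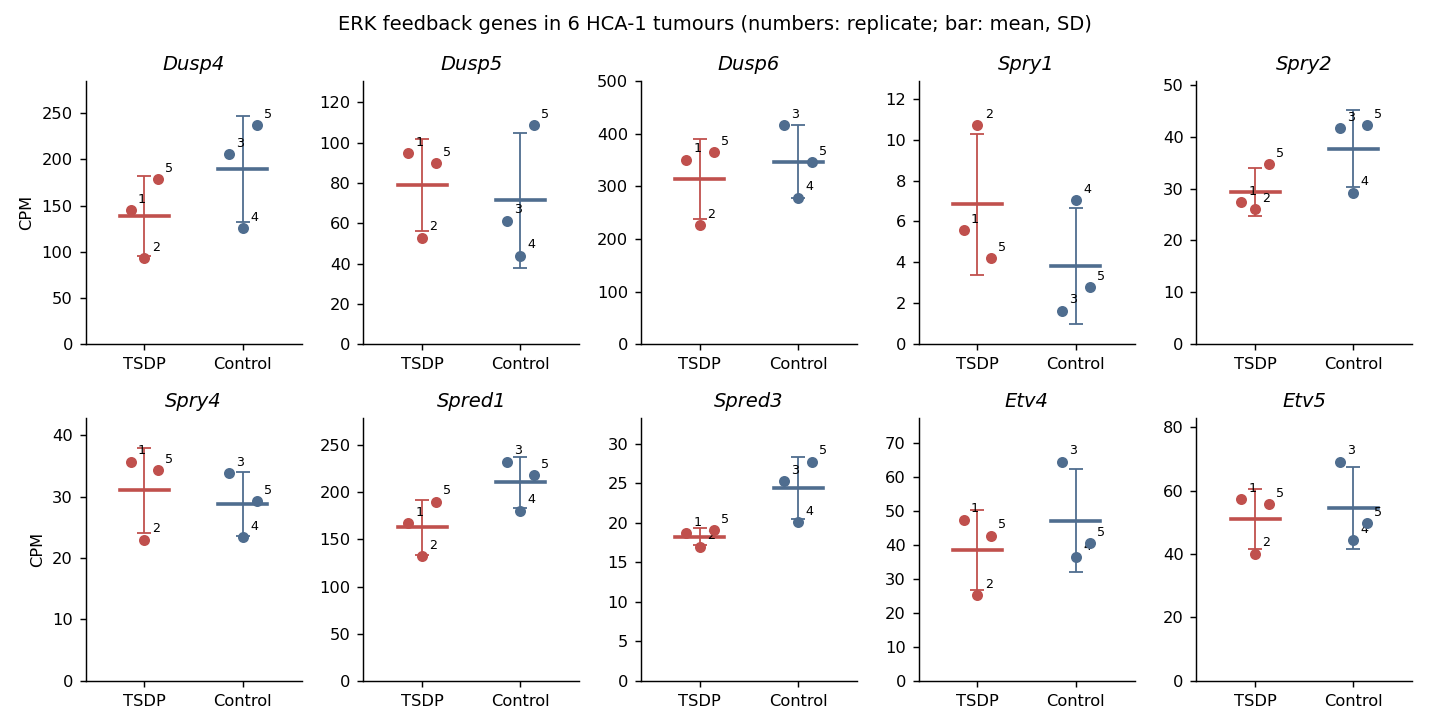
CPM of each of the 10 genes in TSDP (red, left) and Control (blue, right) tumours, 1 point per library with its replicate number, the bar at the mean and the whisker at 1 SD (n = 3 each). Of the 10 genes, Spred3 is the 1 whose groups do not overlap, and replicate 2 of TSDP and replicate 4 of Control are the lowest of their groups in every panel but that of Spry1.

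Sprouty proteins bind adaptors and RAF and limit the activation of ERK by receptors. Spry2 had 27.3, 26.1 and 34.7 CPM in TSDP 1, 2 and 5, against 41.6, 29.2 and 42.3 CPM in Control 3, 4 and 5. Control 4 lay inside the TSDP range, and the other 2 Control libraries above it (log2 fold change -0.36 ± 0.19, SE, edgeR adjusted p = 0.450). Spry4 had 35.7, 23.0 and 34.3 CPM in TSDP libraries and 33.8, 23.4 and 29.2 CPM in Control libraries. The 2 groups of Spry4 covered nearly the same range (log2 fold change 0.11 ± 0.22, SE, edgeR adjusted p = 0.848). Spry1, an inhibitor known from kidney development, was the scarcest of the 10, at 5.56, 10.7 and 4.21 CPM in TSDP libraries and 1.64, 7.05 and 2.81 CPM in Control libraries. Its log2 fold change, 0.83 ± 0.61 (SE, edgeR adjusted p = 0.566), was the largest in size, and its 95% interval, as a fold, ran between 0.643 and 4.94. Leaving out 1 library at a time moved the log2 fold change of Spry1 between 0.34 (without TSDP 2) and 1.61 (without Control 4, edgeR adjusted p = 0.204). Control 3 held 53 counts of Spry1 and TSDP 2 371. Opposite-strand exons of a predicted gene with 12 counts in all cover 24.4% of the exon bases of Spry1.

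SPRED proteins recruit neurofibromin, a GTPase-activating protein, to RAS. Spred1 had 167, 132 and 190.1 CPM in TSDP 1, 2 and 5, against 232, 180.5 and 218 CPM in Control 3, 4 and 5. The highest TSDP value was just above the lowest Control value (log2 fold change -0.37 ± 0.18, SE, edgeR adjusted p = 0.421). Spred3, a relative of lower abundance, had 18.7, 17.0 and 19.1 CPM in TSDP libraries, against 25.3, 20.1 and 27.8 CPM in Control libraries. These groups did not overlap, which held for 1 of the 10 genes in that direction and for 8.76% of all genes tested. The gap between TSDP 5 (685 counts) and Control 4 (655 counts) was 0.974 CPM. The SD was 1.13 CPM in TSDP and 3.92 CPM in Control (n = 3 each). The log2 fold change of Spred3 was -0.42 ± 0.15 (SE), with an edgeR p of 0.032 and an adjusted p of 0.354. Its unadjusted edgeR p was above 0.05 when any 1 library but Control 4 was left out, and 0.00866 without Control 4. Ggn, on the other strand, shares 3.25% of the exon bases of Spred3. It had fewer counts than Spred3, but many more than the genes that overlap Dusp5 and Spry1. The strand setting of the counts was not given, and the effect of this overlap on the gap between the groups of Spred3 was not tested.

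Etv4 and Etv5 encode PEA3-type ETS factors that carry ERK signals to target genes. Etv4 had 47.5, 25.3 and 42.8 CPM in TSDP 1, 2 and 5, against 64.6, 36.4 and 40.5 CPM in Control 3, 4 and 5. Control 3 stood above every other library, and the rest overlapped (log2 fold change -0.29 ± 0.31, SE, edgeR adjusted p = 0.690). Etv5 had 57.3, 40.1 and 55.7 CPM in TSDP libraries and 69.1, 44.4 and 49.8 CPM in Control libraries. TSDP 1 and TSDP 5 lay above Control 4 and Control 5 (log2 fold change -0.09 ± 0.22, SE, edgeR adjusted p = 0.869). As folds, the 95% intervals were 0.486 to 1.37 for Etv4 and 0.653 to 1.35 for Etv5.

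**Figure D2:**
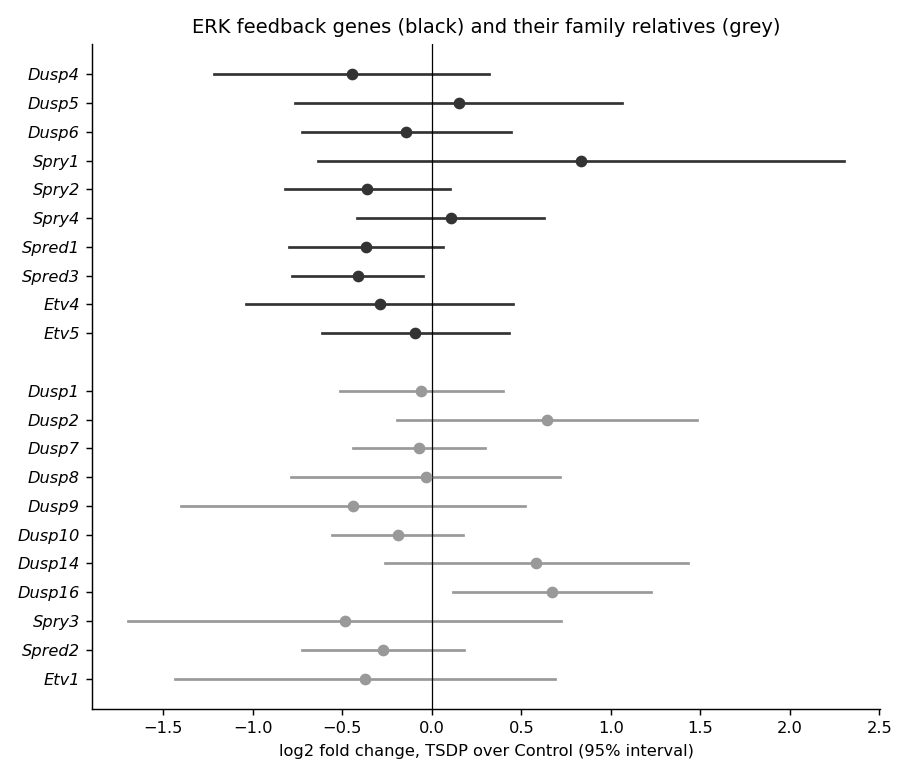
Log2 fold change (TSDP over Control) from edgeR with its 95% interval for the 10 ERK feedback genes (black) and 11 other genes of their families (grey). The interval of Spred3 lies below 0 and that of Dusp16 above it, and those of the other genes include 0.

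Per kilobase of exon (GENCODE M21, all of whose 55450 genes are in the count table) the order of mean levels over all 6 libraries was Dusp6, Dusp4, Dusp5, Spred1, Spry2, Etv4, Etv5, Spry4, Spred3 and Spry1. Dusp6 averaged 100.3 CPM per kb ± 24.3 in TSDP and 110.8 CPM per kb ± 22.0 in Control (SD, n = 3 each), and was above Dusp4 in 6 of 6 libraries. Spry1 averaged 2.35 CPM per kb ± 1.18 in TSDP and 1.32 CPM per kb ± 0.981 in Control. Neighbours whose ranges over the 6 libraries did not overlap were Etv5 above Spry4 and Spry4 above Spred3. Dusp5 exceeded Spred1 in 4 of 6 libraries, and Spry2 exceeded Etv4 in 4 of 6. By group means the order differed, with Etv5 just above Etv4 in TSDP, and Spred1 above Dusp5 in Control. Dusp6 made up 38.9% ± 0.69 of the summed level per length of the 10 genes in TSDP and 37.4% ± 3.47 in Control.

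Ratios between relatives do not depend on the scaling of a library, and 6 were taken after the values of the genes had been seen. The ratio of Spry2 to Spry4 per length was 1.75, 2.58 and 2.31 in TSDP 1, 2 and 5, against 2.81, 2.84 and 3.30 in Control 3, 4 and 5. All 3 TSDP ratios were lower than all 3 Control ratios. The ratio of Dusp4 to Dusp5 was 1.38, 1.59 and 1.80 in TSDP libraries, against 3.02, 2.59 and 1.97 in Control libraries, again without overlap. For both the exact two-sided permutation p was 0.1, the smallest possible, and 0.3 with the Benjamini-Hochberg adjustment over the 6 ratios. The other 4 ratios (Dusp6 to Dusp4, Dusp6 to Dusp5, Etv5 to Etv4 and Spred1 to Spred3) had exact p of 0.2 to 1.

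Within each group the genes followed the libraries. Dusp4, Dusp5, Dusp6, Spry2, Spry4, Spred1, Spred3, Etv4 and Etv5 were lowest in TSDP 2 among TSDP libraries and in Control 4 among Control libraries. That is 9 of 10, against 23.3% of all genes tested with the same pattern. It was also seen in 7 of 12 other genes used as readouts of ERK, 6 of 16 immediate early genes and 4 of 11 relatives. Of other genes that restrain the pathway 5 of 11 had it, and of cascade and receptor genes 6 of 20 and 2 of 18. Spry1 had the opposite order and was highest in TSDP 2 and Control 4, as were 27.8% of all genes tested. TSDP 2 was the lowest of all 6 libraries for 8 of the 10 genes, against 27.7% of all genes. These 2 libraries also had the highest hepatocyte share of their groups, 6.36% in TSDP 2 and 2.34% in Control 4. Spry1 ran in the order of the hepatocyte share in both groups, TSDP 5, 1 and 2, and Control 3, 5 and 4. In such bulk samples fewer tumour cells and less RNA per cell cannot be told apart.

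**Figure D3:**
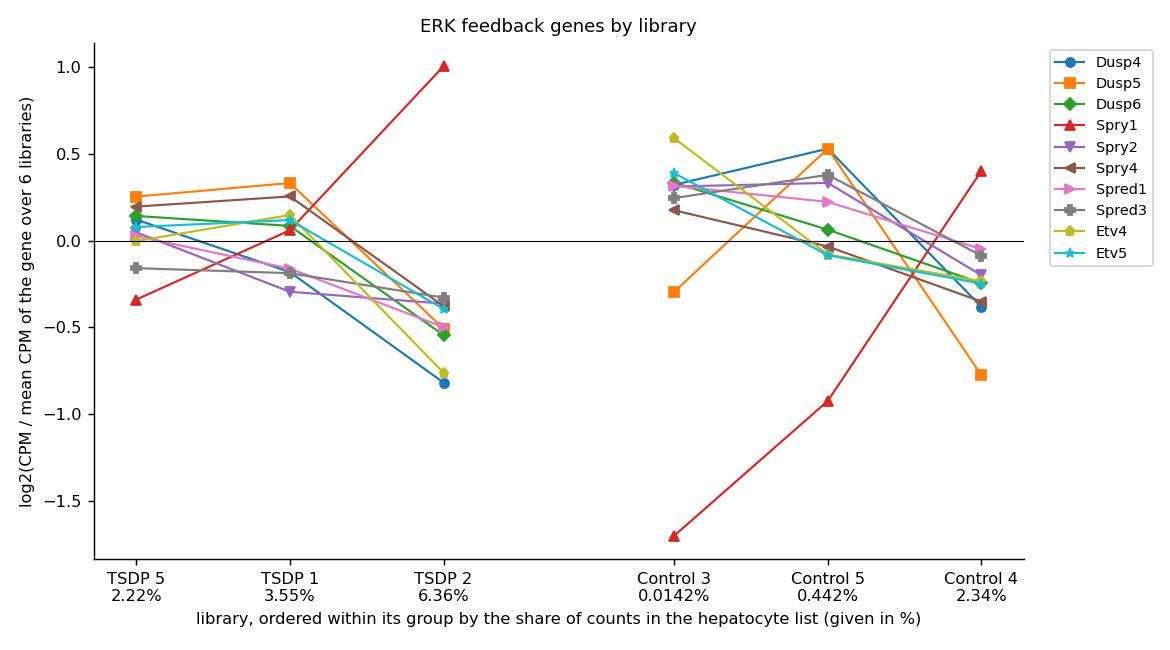
Log2 of CPM over the gene's mean CPM in the 6 libraries, for the 10 ERK feedback genes, with libraries ordered within TSDP (left) and Control (right) by the share of their counts that the hepatocyte genes took. All genes but Spry1 are lowest in TSDP 2 and in Control 4, where Spry1 is highest.

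No marker of another cell type passed the edgeR threshold. All 20 hepatocyte genes had positive log2 fold changes (median 2.66), led by Ass1 of the urea cycle (2.33 ± 0.59, SE) and Tat, which breaks down tyrosine (3.96 ± 1.38, SE), by their p, and with Alb, which encodes albumin, at 2.30 ± 1.46 (SE). Of 10 endothelial genes 10 were positive (median 0.40, with Tek and Robo4 the smallest p), as were 10 of 10 fibroblast and mural cell genes (median 0.50, with Rgs5 and Acta2), 5 of 5 sinusoidal genes (2.01, with Oit3 and Gpr182), 9 of 9 T cell genes (0.63, with Trac and Cd4) and 6 of 6 B cell genes (1.75, with Jchain). Macrophage genes had 8 of 10 positive (0.23, with Clec4f and Csf1r), neutrophil genes 2 of 6 (-0.75, with S100a8 and S100a9), and carcinoma markers 6 of 9 (0.12, with Cdh1 and Afp). No listed marker in the table was at 0 in every library. DESeq2 called Cdh1, which encodes E-cadherin, with an adjusted p of 0.0155 (edgeR log2 fold change 0.94 ± 0.23, SE), and also Ass1, Oit3 and Jchain as higher and S100a8 as lower. The summed share of the endothelial list was 0.0247%, 0.0333% and 0.0228% of counts in TSDP 1, 2 and 5, against 0.0242%, 0.0214% and 0.0171% in Control 3, 4 and 5. That of the fibroblast list was 0.552%, 0.802% and 0.443% in TSDP libraries, against 0.314%, 0.571% and 0.669% in Control libraries. The hepatocyte score, the mean log2 CPM of the list, was 9.52, 10.5 and 8.92 in TSDP 1, 2 and 5. In Control 3, 4 and 5 it was 1.27, 8.38 and 6.31, below every TSDP library. Score and treatment therefore cannot be fully told apart in fits that hold both. Control 3 lay far below every other library in this score, and no fit with the covariate was run without it. How far the values with the covariate rest on Control 3 was not tested. With the hepatocyte score as a covariate, Spry1 stood at -0.31 ± 0.46 (SE, edgeR adjusted p = 0.960). The median of the 10 genes stood at 0.10, with 5 negative and 5 positive. With this covariate Dusp4 stood at -0.05, Spry2 at -0.08, Spred1 at -0.12 and Spred3 at -0.26. Dusp5 stood at 0.28 and Spry4 at 0.46, and Dusp6, Etv4 and Etv5 turned positive, at 0.26, 0.32 and 0.36. Among these genes the SE ran from 0.19 for Etv5 to 0.54 for Dusp5. Cdh1 stood at 0.50. The part of the other cell types in these values was not tested.

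Relatives outside the 10 genes went both ways. Of 11, 8 had negative and 3 positive log2 fold changes (median -0.07), and 0 passed the adjusted threshold. Dusp16, a phosphatase of JNK and p38, had 71.0, 84.0 and 53.1 CPM in TSDP 1, 2 and 5, against 33.2, 45.7 and 51.8 CPM in Control 3, 4 and 5. It was the 1 relative whose groups did not overlap, where 13% of all genes tested were higher in this way (log2 fold change 0.67 ± 0.23, SE, edgeR adjusted p = 0.337). With the hepatocyte score as a covariate Dusp16 stood at 0.28 ± 0.25 (SE). Dusp1, an immediate early phosphatase, had a log2 fold change of -0.06 ± 0.19 (SE) and Spred2 one of -0.27 ± 0.19 (SE). Dusp7, Dusp8, Dusp9 and Dusp10 had log2 fold changes of -0.07, -0.03, -0.44 and -0.19, Dusp2 and Dusp14 0.64 and 0.58, Etv1 -0.37, and Spry3, at 0.649 CPM or less, -0.49. With the covariate Dusp1 stood at 0.28, Spred2 at 0.04, Dusp2 at 0.06, Dusp14 at -0.03 and Etv1 at 0.30.

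Other proteins that restrain the pathway gave 2 positive and 9 negative values of 11 (median -0.28). Groups did not overlap for 1 of the 11 as higher in TSDP and for 4 as lower, against 13% and 8.76% of all genes tested. Errfi1, which encodes MIG6, an inhibitor of the EGF receptor, had 562, 813 and 476 CPM in TSDP 1, 2 and 5, against 235, 313 and 279 CPM in Control 3, 4 and 5. Every TSDP library was above every Control library, as for 13% of all genes tested. Its log2 fold change was 1.16 ± 0.24 (SE), with an edgeR adjusted p of 0.326, while DESeq2 called it with an adjusted p of 0.00046, where 3.38% of the genes DESeq2 tested passed. With the hepatocyte score as a covariate it stood at 0.83 ± 0.29 (SE). Cblb, a ubiquitin ligase of receptors, had 99.4, 81.7 and 100.2 CPM in TSDP libraries, against 116, 124 and 135 CPM in Control libraries. Its log2 fold change was -0.41 ± 0.13 (SE, edgeR adjusted p = 0.334), and -0.45 ± 0.18 (SE) with the covariate. Il17rd, also called SEF, is an FGF receptor antagonist. It had 1.89, 2.08 and 1.53 CPM in TSDP libraries, against 2.47, 2.64 and 2.09 CPM in Control libraries. The groups of Cblb and Il17rd did not overlap either, and both genes were lower in TSDP.

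Among the targets of ERK, immediate early genes split evenly, with 8 positive and 8 negative of 16 (median -0.005). Egr1, a zinc finger factor induced within minutes, had 373, 215 and 242 CPM in TSDP 1, 2 and 5, against 125, 149 and 398 CPM in Control 3, 4 and 5. Fos had 70.4, 61.1 and 97.7 CPM in TSDP libraries, against 89.7, 56.2 and 31.5 CPM in Control libraries. The groups of both genes overlapped. Fosb, a Fos relative, had the smallest p of this list (log2 fold change 0.54 ± 0.22, SE, edgeR adjusted p = 0.372), Fosl1 stood at 0.01 ± 0.27 and Myc at -0.40 ± 0.24. Of 12 other output genes 8 were positive and 4 negative (median 0.20), with Tfpi2, a protease inhibitor, at 1.46 ± 0.64, Sh2b3, an adaptor, at 0.20 ± 0.12, Phlda1 at 0.45 ± 0.35 and Ccnd1, which encodes cyclin D1, at -0.33 ± 0.30 (log2 fold change, SE). With the hepatocyte covariate Tfpi2 stood at 0.02, Phlda1 at 0.28, Ccnd1 at 0.21 and Myc at -0.19. Fos went from 0.37 to 0.99 ± 0.40 (SE), Fosb from 0.54 to 0.68 and Fosl1 from 0.01 to 0.19. Egr1 turned from 0.30 to -0.12. In both lists 0 genes passed the edgeR threshold.

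**Figure D4:**
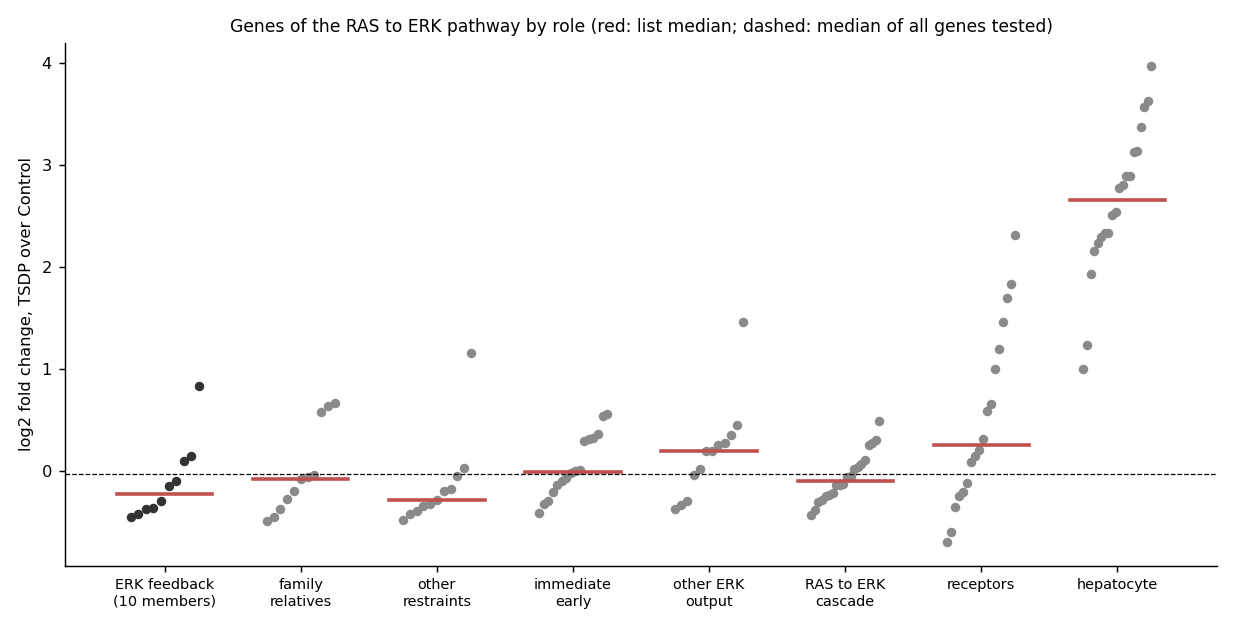
Log2 fold changes (TSDP over Control) of single genes in 7 lists of the pathway and in the hepatocyte list, 1 point per gene tested, with the list median in red and the median of all 17423 genes as a dashed line. The median of the 10 ERK feedback genes is -0.22 and that of the hepatocyte genes 2.66.

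The cascade itself had 8 positive and 12 negative values of 20 (median -0.09), with 0 past the threshold. Frs2, the adaptor of FGF receptors, had 55.6, 56.1 and 62.5 CPM in TSDP 1, 2 and 5, against 84.3, 68.2 and 80.9 CPM in Control 3, 4 and 5 (log2 fold change -0.42 ± 0.12, SE, edgeR adjusted p = 0.326). Braf had 56.8, 59.2 and 63.1 CPM in TSDP libraries, against 88.1, 63.7 and 81.4 CPM in Control libraries (log2 fold change -0.38 ± 0.14, SE, edgeR adjusted p = 0.360). Both genes were lower in every TSDP library than in any Control library, as were 8.76% of all genes tested, and for both the closest Control library was Control 4. With the hepatocyte score as a covariate Frs2 stood at -0.25 ± 0.15 and Braf at -0.13 ± 0.16 (SE). Hras, a RAS gene named here after its values were seen, was higher in every TSDP library than in any Control library, as were 13% of all genes tested (log2 fold change 0.27 ± 0.11, SE, edgeR adjusted p = 0.371, and 0.26 with the covariate). Araf had a log2 fold change of 0.11 ± 0.17 (SE; -0.09 with the covariate). Of kinases that follow, Map2k1 and Map2k2, which encode MEK, stood at -0.24 and -0.13, and Mapk3, which encodes an ERK, at -0.21 (with the covariate -0.04, -0.09 and -0.04).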

How the data were processed

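Per the labels' protocols, RNeasy kits gave the RNA of the 6 tumours and a KAPA mRNA kit the libraries. The submitters' processing notes name HISAT2 2.1.0, Trimmomatic 0.38 and featureCounts 2.0.0, besides CASAVA, FastQC and MultiQC. The genome build, annotation and strand setting were not given in the sources used here, which leaves reads of overlapping genes uncertain. The authors deposited a table of raw read counts. The deposited normalized signal equals those counts divided by 1 factor per library (largest relative departure 5.2e-15), and supplied gene symbols only. Groups and replicate numbers (TSDP 1, 2 and 5, Control 3, 4 and 5) came from sample titles. Nothing else says that the replicates were separate animals, and calling each library 1 tumour rests on these titles. The p-values therefore reflect spread between samples that may be technical. No 2 libraries agreed within counting noise (smallest chi-square per gene 47.7).

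The test was edgeR 4.0.16 under R 4.3.3, with filterByExpr (minimum count 10), TMM factors, glmQLFit with legacy quasi-likelihood, group as the 1 term, and Benjamini-Hochberg adjustment over 17423 genes at 0.05. All 10 genes passed the filter. Standard errors were taken from the log2 fold change and the F statistic, and 95% intervals use its degrees of freedom. CPM uses TMM-scaled totals of tested genes, which leave out the pancreatic genes. DESeq2 1.42.0, limma 3.58.1 (voom), other factors and filters, a hepatocyte covariate and leaving out each library were alternatives. The fits were tested on simulated data. The 10 genes and the 17 other lists were chosen with earlier results of these data known. Named were the 10 genes, their relatives, a fixed set of pathway genes and the 2 genes with the smallest p of each list, of which 3 genes are not reported here. Pooled over genes, libraries differed by more than counting noise, but counting error was not compared with the spread of each gene.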

Additional observations from a re-analysis of the deposited data

How the results depend on the processing

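The count of 0 called genes among the 10 held under every alternative run. Among all genes, 1 passed without a filter on low counts, and DESeq2 called 620 (3.38%). Every other run called 0 of all genes, so a count of 0 among the 10 says little there. At an unadjusted p under 0.05 the count of 1 became 2 with upper-quartile factors and 0 with the hepatocyte covariate, and 0 to 3 when 1 library was left out. The 1 gene without overlap became 2 with library totals alone, and 1 to 5 when 1 library was left out (5 without Control 4). The share of all genes without overlap was not computed for these settings, and smaller groups separate more easily. These counts are therefore not a result about the 10 genes. The median log2 fold change of -0.22 became 0.10 with the hepatocyte covariate, and -0.37 to -0.013 when 1 library was left out (-0.37 without Control 4, -0.013 without Control 3, -0.016 without TSDP 2). Over all genes no scaling moved the median by more than 0.1.

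Of 150 single values 140 kept their direction and 10 turned. With the hepatocyte covariate Dusp6 stood at 0.26, Spry1 at -0.31, Etv4 at 0.32 and Etv5 at 0.36. When 1 library was left out, Dusp5 ranged over -0.11 (without Control 4) to 0.58, Dusp6 over -0.28 to 0.037 (without TSDP 2), Spry4 over -0.025 (without Control 4; -0.008 without TSDP 1) to 0.27, and Etv5 over -0.22 to 0.099 (without Control 3; 0.047 without TSDP 2). Of the genes that kept their direction then, Dusp4 ranged over -0.67 to -0.24 (without TSDP 2), Spry1 over 0.34 (without TSDP 2) to 1.61 (without Control 4), Spry2 over -0.52 to -0.28 (without Control 5), Spred1 over -0.50 to -0.24 (without TSDP 2) and Etv4 over -0.47 to -0.02 (without Control 3). The cause was not tested. Leaving out each library kept the direction of the Spry2 to Spry4 and Dusp4 to Dusp5 ratios. No paired analysis was possible because the groups share 1 replicate number only. With 3 libraries a group the intervals of the 10 genes remain wide.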

Other observations

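Receptors that feed RAS had 12 positive and 6 negative log2 fold changes (TSDP over Control) of 18, with 0 past the edgeR threshold. Flt4 and Kdr, the VEGF receptors of lymphatic and blood vessels, had the smallest p, at 1.46 ± 0.41 and 1.01 ± 0.30 (SE), and DESeq2 called both, with adjusted p of 0.0116 and 0.0425. Igf1r stood at -0.69 ± 0.23 (SE). With the hepatocyte score as a covariate Flt4 stood at 0.78, Kdr at 0.73 and Igf1r at -0.31. Fgfr4, the FGF receptor of hepatocytes, had 24.8, 42.4 and 11.4 CPM in TSDP 1, 2 and 5, against 0.0309, 12.5 and 3.28 CPM in Control 3, 4 and 5. Its co-receptor Klb had 8.35, 11.7 and 5.02 CPM in TSDP libraries, against 0.402, 4.35 and 1.37 CPM in Control libraries. Klb and Fgf1 had the smallest p of the FGF list, of whose 8 tested genes 7 were positive (Klb 2.03 ± 0.81, Fgf1 2.01 ± 1.08, SE). With the covariate Klb stood at 0.45 and Fgf1 at 0.03, and Fgfr4 turned to -0.66, against 2.31 without it. Leaving out Control 4 took Klb to 3.21, Fgf1 to 3.87 and Fgfr4 to 3.95. Within each group Fgfr4 and Klb ran in the order of Spry1. They were highest in TSDP 2 and in Control 4 and lowest in TSDP 5 and in Control 3. Also highest in TSDP 2 and in Control 4 were 20 of 20 hepatocyte genes and 27.8% of all genes tested. The same held for 10 of the 18 receptors and 5 of the 8 FGF genes. Proliferation genes had 1 positive and 9 negative values of 10 (median -0.09), with Mki67 at -0.36 ± 0.32 and E2f1 at -0.29 ± 0.22 (SE), and at 0.16 and 0.15 with the covariate.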
